A study of Mus musculus with 17 samples.

Results

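The gene expression of bone progenitors from uninjured femurs of female C57BL/6 mice was compared after ovariectomy (OVX), the removal of the ovaries, and after sham surgery. The members are the uninjured arrays, chosen by their labels: 5 of the 17 arrays of the series. The 2 OVX arrays carry the title codes OUB and OUS, and the 3 sham arrays carry SUS, SU and BU. OUB and BU held mBCSP cells, the bone, cartilage and stromal progenitors downstream of the stem cell. OUS, SUS and SU held mSSC cells, the mouse skeletal stem cells at the head of that lineage. All mice were operated at 8 weeks of age, and the age at which others of the study were fractured came 6 weeks later. None of the 5 arrays came from mice given estradiol or from a fracture callus, and the labels do not say that arrays came from separate mice. The titles of SUS, SU and BU spell out the uninjured state, whereas for OUB and OUS it is given by the code letter U, a treatment label with no fracture and a source that is not callus. The remaining 12 arrays came from fracture callus, 2 of them with conflicting labels of ovary surgery and 2 with none. They serve here as a scale and for a comparison with callus, and they supply most of the spread behind the p-values.

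RNA was amplified over successive rounds and hybridised to Affymetrix mouse arrays, so values are hybridisation signals on the log2 scale, where a step of 1 is a doubling. Levels are given after quantile normalisation of all 17 arrays, with a floor at 5.95 below which signals were not ordered, and no gene's level is compared with that of another gene. A gene was called changed when its adjusted p in limma, over 14504 genes, was under 0.05. The title codes follow 3 forms. Both OVX arrays and SUS are written with surgery, injury and population, and SU and BU with population and injury alone. The fit held a term for the form, so that the OVX difference rests on OUB, OUS and SUS, with a spread taken from mSSC and mBCSP arrays of the same group and not from replicate mice. Whether the forms mark arrays processed apart is not stated, and each sham array is therefore shown by itself.

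Ovarian estrogen acts on bone through the nuclear receptors ERα and ERβ, and its loss raises bone turnover, with resorption exceeding formation. Skeletal stem cells give rise to progenitors of cartilage, bone and stroma, which lay down fibrillar collagens and matricellular proteins and which also supply the signals that steer osteoclasts and marrow cells. After a fracture the same lineage expands and makes callus, in which collagen, tenascins, periostin and matrix proteases are abundant. In a bulk sample, fewer cells of a type and less RNA per cell cannot be told apart.

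The sorted cells were first set against their markers. Across 16 skeletal progenitor genes, the mean level was 9.41 and 8.99 on OUB and OUS, against 8.74, 7.73 and 7.69 on SUS, SU and BU, with 9.94 to 10.89 on the callus arrays. The sort excluded CD45-positive cells, yet Ptprc, which encodes CD45, stood at 14.74 and 14.62 on the OVX arrays and at 14.27, 14.58 and 13.79 on SUS, SU and BU, against 6.58 to 13.53 on callus arrays. S100a8, a neutrophil calprotectin subunit, likewise stood at 14.27 and 14.30 in OVX and at 14.57, 14.30 and 14.73 in sham samples. Blood cell RNA was thus present on all 5 arrays, and its part in the results was not tested. The 11 neutrophil markers averaged 13.85 and 13.92 in OVX, inside the sham range of 13.69 to 14.68.

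Single arrays also stood apart in other lineages. The 15 endothelial markers averaged 9.86 on OUB and 7.37 on OUS, against 7.51 to 7.91 on the sham arrays, with Tek, Pecam1 and Cdh5 at 10.48, 12.07 and 10.12 on OUB. Tek encodes Tie2, which the sort also excluded. The 8 erythroid markers averaged 12.86 and 13.05 in OVX, with 13.20 on SUS, 9.08 on SU and 13.11 on BU. The 9 megakaryocyte and platelet markers averaged 9.02 and 8.89 in OVX and 10.68, 8.21 and 8.65 on SUS, SU and BU. Some results rest on OUB, SU or SUS alone, and several of these are named as such.

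**Figure D1:**
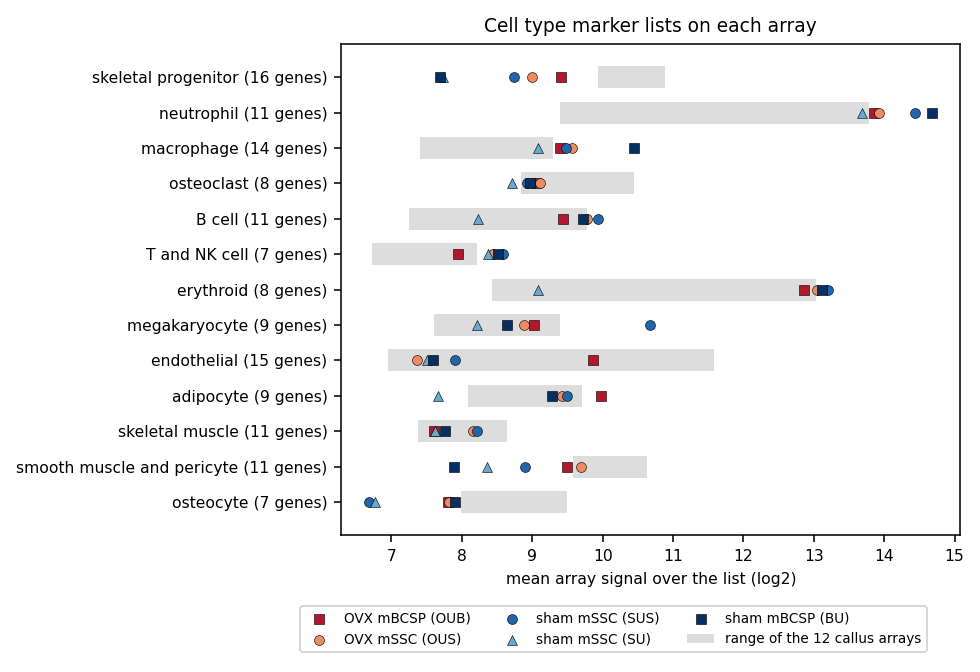
Mean log2 signal over each cell type marker list on the horizontal axis, with a symbol per uninjured array (OVX in red and orange, sham in blue) and a grey bar for the range of the 12 callus arrays. Skeletal progenitor genes were at 9.41 and 8.99 in OVX and at 7.69 to 8.74 in sham, while the endothelial list was high on OUB, the megakaryocyte list high on SUS and the erythroid list low on SU.

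Against this background, 19 genes were higher in OVX than in sham progenitors, which is 0.131% of the genes tested, and 2 were lower, which is 0.0138%. At an unadjusted p under 0.05, 660 genes were higher and 465 lower. Both OVX arrays lay above all 3 sham arrays for 2561 genes, or 17.7%, and below all of them for 3066 genes, or 21.1%. Without the term for the title form, 353 genes were called higher (2.43%) and 132 lower (0.91%). The 19 genes called higher passed in that fit too, and in each of them both OVX arrays lay above every sham array. The median log2 fold change of all genes was 0.04, and -0.03 without the term.

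Single pairs of arrays of matched populations showed how much the choice of sham array matters. Between the mSSC arrays OUS and SUS, 614 genes were more than 1 log2 unit higher and 422 more than 1 lower in OVX. Between OUS and SU there were 1746 higher and 1431 lower, and between the mBCSP arrays OUB and BU 1641 higher and 1757 lower. SUS and SU, both sham mSSC, differed from each other by as much in 1483 and 950 genes. The OVX arrays were also nearer to SUS, with Spearman correlations over all probe sets of 0.960 for OUB and 0.967 for OUS, than to SU, with 0.906 and 0.925, or BU, with 0.916 and 0.934. Surgery and title form cannot be told apart in the pairs that use SU or BU.

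**Figure D2:**
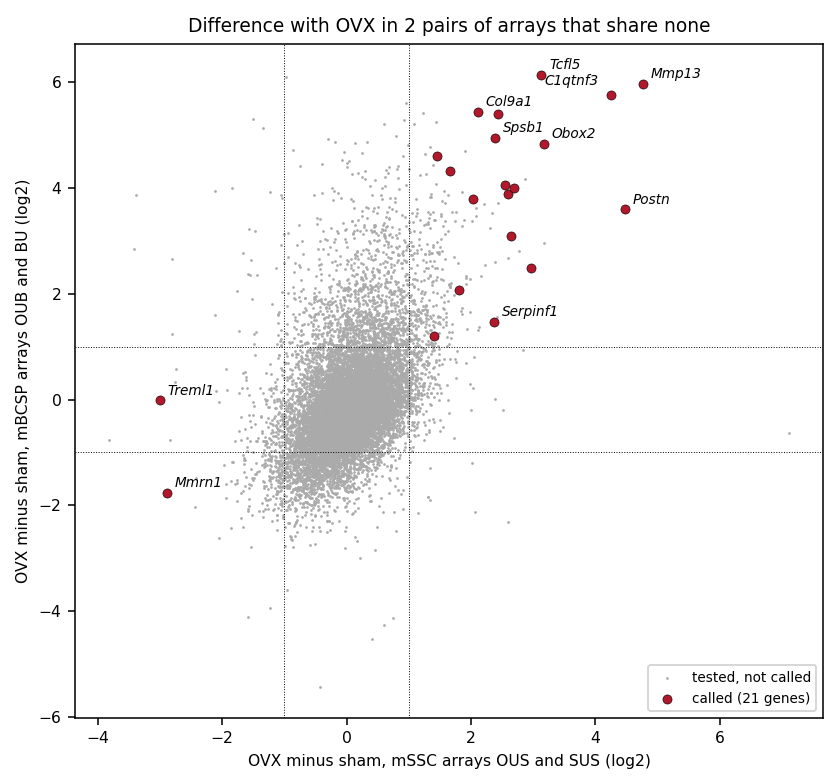
Log2 difference between mSSC arrays OUS and SUS on the horizontal axis and between mBCSP arrays OUB and BU on the vertical axis, a point per gene. No array is shared by the axes, 336 genes were past 1 in both and 204 past -1 in both, and Mmp13, Postn and C1qtnf3 lie at the far upper right.

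The largest called differences were in a collagenase, a matricellular protein and a secreted cartilage factor. Mmp13, or collagenase 3, cuts fibrillar collagens and is made by hypertrophic chondrocytes and osteoblasts. Its signal was 11.92 and 11.39 on OUB and OUS, against 6.63 on SUS, 6.49 on SU and the floor of 5.95 on BU. Both OVX samples were thus bright where all sham samples were close to the floor. The log2 fold change was 5.16 ± 0.32 (SE, adjusted p = 3.94e-05). With sham signals this dim its size depends on the floor, and it was 4.56 with a floor at the 40th percentile. The signal on callus arrays was 12.40 to 13.97, so the uninjured OVX samples lay below the callus samples but far nearer to them than the sham samples did.

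Postn encodes periostin, a matricellular protein of the periosteum and other collagen-rich tissue. Its signal was 11.60 and 10.95 in OVX, against 6.48 on SUS, 8.01 on SU and 8.0 on BU. Here SUS was the lowest sham array, and the groups lay far apart whichever sham array was used. The log2 fold change was 4.76 ± 0.25 (SE, adjusted p = 1.45e-05), 4.04 with the higher floor, and 3.75 without the form term (adjusted p = 0.000348). All callus arrays were brighter, at 14.29 to 14.81.

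C1qtnf3 encodes a secreted protein of the C1q and TNF-related family, also called CTRP3 or cartducin, known from growing cartilage. It stood at 11.71 and 11.67 in OVX and at 7.42, 7.61 and the floor on SUS, SU and BU. The OVX samples were nearly alike and the sham samples all dim. The log2 fold change was 4.37 ± 0.46 (SE, adjusted p = 0.00467) and 4.29 with the higher floor, with 14.04 to 14.43 in callus. These 3 genes passed in 34 of the 35 alternative fits tried, the exception being the fit on the 5 uninjured arrays alone, in which no gene passed. The other called genes passed in 13 (Panx3 and Cdh11) to 32 (Lox) of the alternatives.

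The proximal promoters of these 3 genes are shown because they carry the largest differences, and because AP-1 and RUNX sites are textbook features of the Mmp13 promoter. They run from 250 bases before to 50 after the start annotated by RefSeq on GRCm38.p6, all on the plus strand, with AP-1 letters TGANTCA and RUNX letters TGTGGT, read on either strand, in capitals.
Mmp13, chr9:7272264-7272563: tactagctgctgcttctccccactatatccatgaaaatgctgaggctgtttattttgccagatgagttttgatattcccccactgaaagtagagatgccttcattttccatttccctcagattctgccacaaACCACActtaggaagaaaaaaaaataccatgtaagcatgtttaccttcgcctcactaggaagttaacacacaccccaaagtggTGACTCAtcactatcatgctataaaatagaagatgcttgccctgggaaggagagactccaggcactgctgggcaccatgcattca
C1qtnf3, chr15:10952082-10952381: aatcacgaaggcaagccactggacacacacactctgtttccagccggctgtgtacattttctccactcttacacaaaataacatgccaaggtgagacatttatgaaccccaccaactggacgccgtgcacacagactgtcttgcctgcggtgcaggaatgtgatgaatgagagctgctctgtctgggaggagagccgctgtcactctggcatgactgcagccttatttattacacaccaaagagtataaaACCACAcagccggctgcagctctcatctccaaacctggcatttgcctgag
Postn, chr3:54360857-54361156: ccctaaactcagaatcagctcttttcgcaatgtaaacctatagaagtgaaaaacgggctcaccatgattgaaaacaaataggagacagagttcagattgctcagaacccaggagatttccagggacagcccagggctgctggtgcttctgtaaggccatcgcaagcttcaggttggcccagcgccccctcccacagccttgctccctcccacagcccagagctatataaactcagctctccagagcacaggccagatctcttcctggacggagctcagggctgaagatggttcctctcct

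The Mmp13 window held an AP-1 match whose first base lies at -35 and a RUNX match at -118, and the C1qtnf3 window a RUNX match at +1. Neither motif was found in the Postn window shown or in that of its other annotated start. Of the 19 genes called higher, 15 had a RefSeq promoter, and AP-1 letters were in 3 of these (Cald1, Klhl13 and Mmp13), against 6.69% of tested genes with a promoter. RUNX letters were in 3 (C1qtnf3, Mmp13 and Serpinf1), against 15.6%. A gene counts here if any of its promoter windows holds a match. Counted by window, AP-1 letters were in 3 of 26 (11.5%), against 5.61% for tested genes. RUNX letters were in 3 of 26 windows (11.5%), against 13.2%. Both motifs were chosen after the values were seen, and a match is a string of letters and not a measured site.

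Apart from Postn, 2 other matricellular genes rose, both of the tenascins. Tnn, the tenascin also called tenascin-W, stood at 11.60 and 10.90 in OVX, against 8.47, 7.10 and 6.19 on SUS, SU and BU (log2 fold change 2.74 ± 0.38, adjusted p = 0.0188). Tnc, tenascin-C, an extracellular glycoprotein of developing and healing tissue, stood at 10.39 and 10.46 in OVX and at 8.66, 8.22 and 8.31 in sham (1.71 ± 0.25, adjusted p = 0.0245). The sham arrays were within 1 log2 unit of each other for Tnc but not for Tnn. Thbs2, a thrombospondin, was 1.69 higher with an adjusted p of 0.0953. Of 22 matricellular genes, 3 were called higher and none lower, against 0.131% and 0.0138% of all genes. Of the 22, 15 (68.2%) lay above all sham arrays, against 17.7% of all genes. The median log2 fold change was 0.45, against 0.04 over all genes.

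Among 25 genes of fibrous matrix, 2 were called higher, Lox and Col5a2, against 0.131% of all genes. Lox, lysyl oxidase, which crosslinks collagen and elastin, stood at 13.24 and 12.97 in OVX and at 10.27, 8.59 and 9.24 on SUS, SU and BU (2.79 ± 0.33, adjusted p = 0.00628). Col5a2, a chain of the fibrillar collagen V, stood at 14.24 and 13.78 in OVX and at 12.32, 9.77 and 9.63 in sham (1.67 ± 0.20, adjusted p = 0.00628). For both genes SUS was the sham array nearest to OVX, by more than 1 log2 unit over the others. Lum, the proteoglycan lumican, was 2.23 higher with an adjusted p of 0.0611, and Col12a1, a collagen that coats fibrils, 1.75 higher with 0.102. No fibrous gene was called lower, and 17 of the 25 (68%) lay above all sham arrays, against 17.7% of all genes. The median log2 fold change of the 25 was 0.63, and 2.06 without the form term. In that fit 12 of the 25 genes were called higher, against 2.43% of all genes.

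Cartilage genes had a like profile, with 1 of 23 called higher, against 0.131% of all genes. Col9a1, a chain of the collagen IX that decorates cartilage fibrils, stood at 14.24 and 14.13 in OVX, against 12.02 on SUS, 9.48 on SU and 8.80 on BU. The log2 fold change was 2.21 ± 0.23 (adjusted p = 0.00465), and SUS lay between OVX and the other sham samples. Col11a1, Hapln1 and Sox9, the last a master transcription factor of cartilage, were 1.28, 1.40 and 1.20 higher with adjusted p of 0.126, 0.190 and 0.622. Altogether 15 of the 23 (65.2%) lay above all sham arrays and none below, against 17.7% and 21.1% of all genes. The median of the 23 was 0.77, or 2.14 without the form term.

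Against 0.131% of all genes called higher, 1 of 13 osteoblast genes passed, Panx3. It encodes pannexin 3, a channel of osteoblasts and hypertrophic chondrocytes, and stood at 10.61 and 10.77 in OVX and at 7.80, 7.62 and 8.12 in sham (3.13 ± 0.48, adjusted p = 0.0349). Its sham arrays were close together, while its other probe sets gave 3.50 and, with overlapping groups, 0.44 (unadjusted p = 0.186). Alpl, the alkaline phosphatase of mineralising cells, was 1.47 higher (adjusted p = 0.507), and Atf4, a transcription factor needed for late osteoblasts, lay below all sham arrays, at -1.18 (adjusted p = 0.172). Of 20 matrix proteases, Mmp13 alone was called, against the same share of all genes. Mmp2, gelatinase A, was 1.64 higher with an adjusted p of 0.0671. In all, 11 of the 20 proteases (55%) lay above all sham arrays, against 17.7% of all genes.

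Other genes called higher lie outside these groups. Serpinf1, which encodes the secreted factor PEDF, whose loss in humans causes a form of brittle bone disease, stood at 11.25 and 11.06 in OVX and at 8.70, 9.06 and 9.79 on SUS, SU and BU (2.38 ± 0.27, adjusted p = 0.00581). Here SUS was the lowest sham array. Cdh11, the cadherin of osteoblasts and other mesenchymal cells, stood at 10.28 and 9.74 in OVX and at 8.08 on SUS, with SU and BU at or near the floor (1.91 ± 0.30, adjusted p = 0.0412). Pcsk5, a convertase that cuts secreted precursors, rose by 2.77 (adjusted p = 0.0224), Cald1, an actin-binding caldesmon, by 2.18 (0.0186, and 0.93 on its probe set of widest range), and Klhl13, an adaptor of a ubiquitin ligase, by 2.82 (0.0187).

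The transcription factor Tcfl5, best known from testis, stood at 12.46 and 12.23 in OVX and at 9.10, 7.66 and 6.31 on SUS, SU and BU (3.43 ± 0.48, adjusted p = 0.0224). Spsb1, an adaptor of a ubiquitin ligase, stood at 13.97 and 13.89 in OVX and at 11.50, 8.75 and 9.02 in sham (2.36 ± 0.38, adjusted p = 0.0472). Both had a graded sham group with SUS on top. Igsf10, an immunoglobulin superfamily gene, rose by 2.77 (adjusted p = 0.0186) with sham arrays between 7.21 and 7.38. Obox2, an oocyte homeobox gene, and Agbl5, a carboxypeptidase that trims tubulin, were each called on a probe set of a type that can bind related sequences, at 3.29 (0.0245) and 1.46 (0.0245). The other probe sets of Agbl5 gave 0.15 and 0.73.

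**Figure D3:**
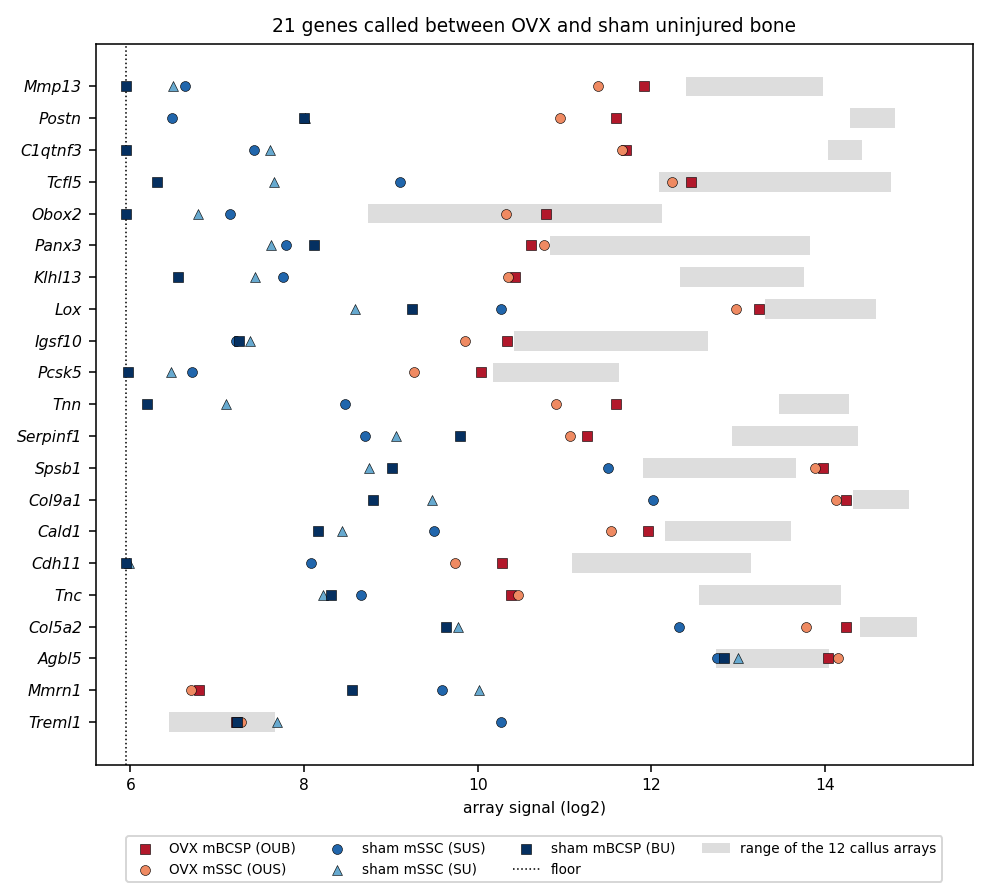
Log2 signal on the 5 uninjured arrays for the 21 genes called in the OVX against sham comparison, with OVX symbols listed before sham symbols and the range over the 12 callus arrays as a grey bar. In the 19 genes called higher both OVX arrays lie to the right of all sham arrays, by 1.04 (Agbl5) to 4.76 (Mmp13).

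Over the 19 genes, the gap between the lower OVX array and the highest sham array was 1.04 to 4.76 log2 units, and OUB exceeded OUS in 16. In 15 of them every callus array was brighter than both OVX arrays, and in 18 every callus array was brighter than all sham arrays. The same counts were not made over all tested genes, and these genes had been called for a higher level in OVX than in sham. That OVX samples mostly lay between sham samples and callus is thus a description of the called genes only. In 8 genes SUS was more than 1 log2 unit above both SU and BU. Among these, Col5a2, Col9a1, Spsb1 and Cdh11 had log2 fold changes of 3.46, 4.14, 4.19 and 3.36 without the form term. Of 20 other probe sets for called genes that were bright enough to test, all 20 had a difference of the same sign as the called one, but 10 had an unadjusted p over 0.05. Some were far smaller, with 0.62 to 0.86 for Spsb1 and 0.03 for Cdh11, where 4 of the 5 arrays were at the floor.

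Taking the fibrous, matricellular, cartilage, osteoblast and protease groups together, 99 genes were tested and fell into distinct patterns. In 27 of them (27.3%) OVX was more than 1 log2 unit higher in all 3 pairs of matched population, against 264 genes (1.82%) overall. In a further 36 (36.4%) it was so against SU and BU but not against SUS, with 4.11% of all genes doing likewise. In 23 of those 36, OUS minus SUS was under 0.5, and in some of them, such as Ccn1, it was below 0. The median of the fibrous matrix genes was 0.45 for OUS minus SUS, 2.50 for OUS minus SU and 3.18 for OUB minus BU, and 1.84 for the sham pair SUS minus SU. For cartilage genes these medians were 0.58, 3.07, 2.98 and 2.55. The skeletal progenitor markers ranked the arrays likewise, with SUS between OVX and the other sham samples, and their part in these results was not tested. The groups had been chosen with earlier results known, so their shares are a description.

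Major collagens of cartilage and bone were more than 1 log2 unit higher in OVX against SU and BU but not against SUS. Col2a1, the main collagen of cartilage, stood at 14.34 and 14.31 in OVX, against 14.19 on SUS, 10.20 on SU and 10.71 on BU. The OVX samples and SUS were alike, and SU and BU were lower. Col1a1, the main collagen of bone, stood at 13.46 and 13.11 in OVX and at 12.67, 9.61 and 9.83 in sham (0.58 ± 0.27, adjusted p = 0.665), and Ccn1, a matricellular growth regulator, at 12.92 and 12.73 in OVX and at 12.79, 9.47 and 9.58 in sham. For Col2a1 the sign of the fitted difference depended on the scaling, at 0.13 after quantile normalisation and -0.06 on the deposited values.

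Skeletogenic signalling genes were mostly higher, by small amounts and with none called in the fit with the form term, and by more without it. The median without the term was 0.67 for Wnt, 0.72 for TGF-beta and activin, 0.36 for BMP, 1.11 for hedgehog, 0.64 for IGF and 0.91 for PDGF and VEGF genes. In that fit 3 of 30 Wnt, 2 of 21 TGF-beta and activin and 2 of 25 BMP genes were called higher. So were 3 of 15 IGF, 2 of 15 PDGF and VEGF and 0 of 13 hedgehog genes, against 2.43% of all genes. Over all genes tested, 53.5% were higher with the form term and 17.7% lay above all sham arrays. Of 30 Wnt genes 26 were higher and 14 lay above all sham arrays, with a median of 0.44. The Wnt inhibitor Dkk1 stood at 9.72 and 9.32 in OVX and at 6.14, 5.95 and 6.75 on SUS, SU and BU, a difference of 3.59 with an SE of 0.82 (adjusted p = 0.175, and 0.0122 without the form term). The groups were well separated, and the sham samples were near the floor. Ctnnb1, or beta-catenin, was 0.70 higher with an adjusted p of 0.422.

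In the TGF-beta and activin group 18 of 21 genes were higher, with a median of 0.28. Tgfb2, a TGF-beta ligand, stood at 11.23 and 10.09 in OVX and at 8.75, 6.85 and 6.45 on SUS, SU and BU (1.91 higher, adjusted p = 0.172). Of 25 BMP genes 18 were higher with a median of 0.28. Acvr1, a type I BMP receptor, was 1.79 higher with an adjusted p of 0.105, at 11.80 and 11.26 in OVX and 9.72, 8.52 and 8.04 in sham. Its probe set of widest range gave 0.47. Bmp2, a bone-inducing ligand, stood at 12.35 and 12.30 in OVX and at 11.13, 7.62 and 8.96 in sham (1.09, adjusted p = 0.659). In each of these 3 genes SUS was the sham array nearest to OVX.

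Of 13 hedgehog genes 10 were higher, with a median of 0.25. Ptch1, the hedgehog receptor and target, was 0.88 higher with an adjusted p of 0.701, while Ihh, the ligand of growth cartilage, differed by 0.18. In the IGF group, Ghr, the growth hormone receptor, and Irs1, an insulin receptor substrate, were 1.38 and 1.82 higher with adjusted p of 0.265 and 0.305. The FGF, PDGF and VEGF, and Notch groups had medians of 0.26, 0.40 and 0.16. All 11 smooth muscle and pericyte markers were higher, with none called and a median of 0.80. Among the progenitor markers, Cd200, a surface protein by which skeletal stem cells are sorted, stood at 12.87 and 12.19 in OVX and at 10.56, 8.15 and 9.67 in sham (1.98, adjusted p = 0.329).

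A set of hormone receptors and skeletal regulators was taken from the study's text, which describes several of them in callus. Of its 17 tested genes 12 were higher and none was called, with a median of 0.23. Bmp1, a procollagen protease, and Col14a1, a fibril-associated collagen, differed by 0.41 and 0.85, the first turning to -0.24 on its probe set of widest range. The Col14a1 difference rests on OUB alone, at 7.88, with OUS at the floor and SUS, SU and BU at 6.01, 7.03 and 6.26. Fbn2, a microfibril protein, Fgfr2, an FGF receptor, and Osm, a myeloid cytokine, differed by -0.45, -0.60 and -0.56, and Fbn2 and Fgfr2 took the other sign without the form term.

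**Figure D4:**
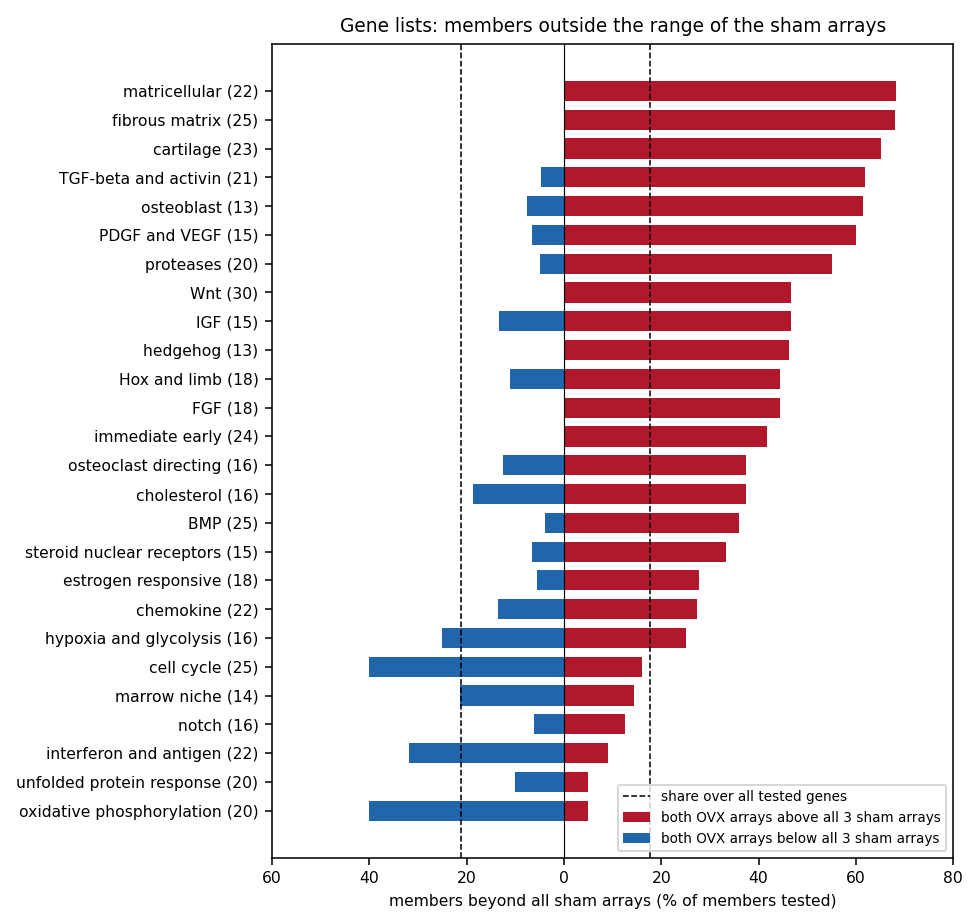
Share of each gene list, in percent of its tested members (number in brackets), whose OVX arrays both lie above all 3 sham arrays, to the right in red, or both below, to the left in blue, with dashed lines at the shares over all tested genes, 17.7% and 21.1%. Matricellular, fibrous matrix and cartilage genes reach 68.2%, 68.0% and 65.2% above with none below, and cell cycle and oxidative phosphorylation genes 40% below.

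Genes of the estrogen response itself showed no called change. Esr1, encoding ERα, stood at 9.79 and 9.67 in OVX and at 9.12, 9.55 and 9.83 on SUS, SU and BU, so the groups overlapped (0.63, adjusted p = 0.802, with -0.87 on the gene's probe set of widest range). Esr2, encoding ERβ, stood at 7.45 and 8.09 in OVX and at 7.53, 7.89 and 7.43 in sham (0.23, adjusted p = 0.970). Vdr, the vitamin D receptor, was 0.92 higher and lay above all sham arrays, with an adjusted p of 0.442. Over 15 steroid and nuclear receptors the median was 0.23.

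Of 18 estrogen-responsive genes 10 were higher and 8 lower, with a median of 0.13, or -0.03 when the probe set of widest range was used. Greb1, a classical ERα target, differed by 0.58, and also took the other sign on its widest-range probe set, at -0.29. Pgr, the progesterone receptor, was too dim to be tested. The full estrogen response element, GGTCA and TGACC with 3 bases between, was in 0 of the 15 genes called higher that have a promoter and in 3 of 11618 tested genes with a promoter (0.0258%). That window holds only the proximal promoter, and estrogen receptors are known to bind mostly at distal sites.

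Signals from progenitors to osteoclasts showed no shared direction. Of 16 such genes 8 were higher and 8 lower, with a median of 0.02 whose sign changed with the scaling. Tnfsf11, encoding the osteoclast inducer RANKL, stood at 6.18 and 6.82 in OVX and at the floor on all sham arrays (0.79, adjusted p = 0.681), against 6.83 to 11.22 in callus. Its decoy receptor Tnfrsf11b, or osteoprotegerin, differed by -0.65, and Csf1, the macrophage growth factor, by -0.29. RANKL signal in uninjured samples was thus near the floor of the arrays, where little difference can be measured.

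The 14 marrow niche genes were 4 higher and 10 lower, with a median of -0.32, but 0.58 without the form term, so their direction was not settled. Cxcl12, the chemokine that holds stem cells in marrow, differed by -0.18, and by 1.72 without the term (adjusted p = 0.384). Angpt1, an angiopoietin of niche stroma, stood at 8.29 and 8.38 in OVX and at 9.35, 10.57 and 10.38 on SUS, SU and BU, below all sham samples but with an adjusted p of 0.852. Il7, the lymphocyte growth factor, was also below all sham arrays (-1.01, adjusted p = 0.658).

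Both genes called lower are platelet genes. Mmrn1, which encodes multimerin 1 of platelets and endothelium, stood at 6.79 and 6.70 in OVX and at 9.59, 10.02 and 8.56 on SUS, SU and BU. All sham arrays were well above OVX, and every callus array was at the floor. Only the sham arrays reached the level required for testing, and both OVX arrays lay below it. Mmrn1 was not tested when that level was required on at least 4 arrays. Callus values that did not vary add little to the spread behind the p-value, so the adjusted p of Mmrn1 may be too small. The log2 fold change was -2.76 ± 0.45 (SE, adjusted p = 0.0472), and -2.61 without the form term (adjusted p = 0.00178). Treml1, a receptor of platelet granules, stood at 7.22 and 7.27 in OVX, against 10.27 on SUS, 7.69 on SU and 7.23 on BU. The call of -3.07 ± 0.35 (adjusted p = 0.00581) rests on SUS alone, and without the form term the value was -1.13 (adjusted p = 0.373).

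Other megakaryocyte markers followed SUS as Treml1 did. Ppbp, a platelet chemokine, stood at 10.27 and 10.21 in OVX, with 13.62 on SUS but 5.95 on SU and 7.41 on BU. Its fitted difference of -3.34 (adjusted p = 0.102) became 1.35 without the form term. All 9 tested members of the list were lower with the form term, at a median of -1.79, and at -0.50 without it. Mmrn1, by contrast, was highest on SU, at 10.02, where the mean of the megakaryocyte list was lowest, at 8.21. Whether the level of platelet RNA on SUS bears on either called gene was not tested. Of further genes with small p in the lower direction, Sephs2, a selenophosphate synthetase, stood at 10.80 and 11.29 in OVX and at 13.16, 12.78 and 13.23 in sham (-2.01, adjusted p = 0.0611). It lay below all sham samples, though its probe set of widest range gave 0.84.

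Cell cycle and oxidative phosphorylation genes leaned lower in OVX by small amounts, least against SUS, with none called in the fit with the form term. Between OUS and SUS, of matched population and title form, their medians were -0.09 and -0.03, against 0.06 over all genes. They were -0.12 and -0.24 for OUS minus SU, and -0.51 and -0.55 for OUB minus BU. In the pairs with SU or BU, surgery and title form cannot be told apart. Of 25 cell cycle genes 10 (40%) lay below all sham arrays and 4 (16%) above, against 21.1% and 17.7% of all genes. Their median was -0.17. Cdk1, the mitotic kinase, stood at 11.34 and 11.64 in OVX and at 12.49, 13.31 and 12.90 in sham (-0.87, adjusted p = 0.475, and 0.022 without the form term). Cdkn1c, a cell cycle inhibitor, was 1.06 higher and above all sham arrays (adjusted p = 0.376). Of 20 oxidative phosphorylation genes, with a median of -0.11, 8 (40%) lay below all sham arrays and 1 (5%), Atp5a1, above (0.95, adjusted p = 0.145). Of 22 interferon and antigen presentation genes 17 were lower, with a median of -0.50 and none called. That median was -0.15 without the form term, and between the single arrays OUS and SU 13 of the 22 were higher in OVX, with a median of 0.27.

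Whether the OVX difference in uninjured progenitors differed from that in callus was tested as an interaction. It passed in 4 genes, 0.0276% of those tested. In the fit the callus difference rests on arrays coded with surgery and population alone, and the uninjured one on arrays of the longer code. Whether the OVX difference varies with injury or with title form therefore cannot be told apart. The OVX minus sham difference in callus was 0.10 for Postn, 0.32 for Mmp13, -0.13 for Col9a1 and -0.09 for C1qtnf3, where all arrays of both groups were bright. The difference between the uninjured and the callus difference was 4.66 ± 0.33 for Postn (SE, adjusted p = 0.000255) and 4.84 ± 0.41 for Mmp13 (adjusted p = 0.00103). It was 2.34 ± 0.29 for Col9a1 (adjusted p = 0.0304) and 4.46 ± 0.59 for C1qtnf3 (adjusted p = 0.0417). Mmrn1 and Treml1 did not pass, with adjusted p of 0.354 and 0.135.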

How the data were processed

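The deposited values, 1 column of log2 expression per array, are those of the authors, whose methods describe double-sorted cells, amplified RNA and dChip-based processing, while the submitters' notes name MAS5 with no version, so the tool that made them is not settled. They were quantile normalised over 17 arrays and floored at the 20th percentile (5.95). Of 45101 probe sets, 34945 named 1 gene by the platform annotation. The probe set of highest mean stood for each of 18193 genes, and the 14504 reaching the 40th percentile (7.20) on 2 or more of the arrays were tested with limma 3.58.1 in R 4.3.3 (eBayes with trend, Benjamini-Hochberg adjustment), with terms for group, population and title form and 7 residual degrees of freedom. The number of arrays limits the precision, and p-values measure only the spread between these samples, which may be technical. Members and gene lists (41 lists, 609 genes tested) were chosen with earlier results of these data known. Named genes were those called, those of smallest p in each list, the estrogen receptors, genes named by the study and cell type markers. Levels of Ccn1, Col2a1 and others of the SUS pattern were chosen after their values were seen. Alternatives changed the form term, the arrays, the scaling, the floor, the filter, the probe set and the moderation. The fit was also run on simulated arrays with known changes, whose outcome is not given here.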

Additional observations from a re-analysis of the deposited data

Results flagged for a closer look

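In 4 genes the OVX minus sham difference was larger in uninjured progenitors than in callus by the test of the interaction. For Postn it was larger by 4.66 log2 units, for Mmp13 by 4.84, for Col9a1 by 2.34 and for C1qtnf3 by 4.46. These were called in 31, 32, 11 and 16 of the 33 alternative fits that give the interaction. All 4 were bright on every callus array, with the dimmest value 12.40 for Mmp13. The uninjured and the callus differences rest on arrays of different title forms.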

How the results depend on the processing

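Counts of called genes moved widely. All 734 values of the 21 genes under the alternatives kept their sign. The genes were picked from these same arrays, which the alternatives reuse, so a kept sign is no separate evidence. Treml1 shrank to -0.21 without SUS and the form term. Called higher, called lower and interaction genes numbered 353, 132 and 9 without the form term. They numbered 196, 48 and 5 with the form as a random block, and 338, 127 and 7 with no form term and array pairs as a random block. With the 5 uninjured arrays alone, 0 and 0 were called, and with the 7 arrays of 1 title form 13 and 2, in which the interaction could not be estimated. Counting the 2 callus arrays of conflicting surgery labels as OVX gave 23, 3 and 11. Deposited values without quantile normalisation gave 6, 1 and 2, no floor 16, 1 and 2, a floor at the 40th percentile 50, 61 and 78, and no filter 26, 20 and 16. A filter on at least 4 arrays gave 19, 1 and 4, the probe set of widest range 14, 1 and 4, and eBayes without trend 13, 1 and 2. Of the 21 genes called, 20 were also called without the form term and 7 on the deposited values.

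Leaving out single arrays gave 7 to 68 higher, 1 to 11 lower and 2 to 18 interaction genes. There were 47 to 68 higher without BU, SU or either callus array of unstated surgery, 14 without either array of conflicting labels, and 7 to 12 without any other array. Without SUS the comparison could not be estimated. With neither the form term nor 1 of the uninjured arrays, the 3 counts were 734, 430 and 429 without SUS, 217, 70 and 10 without SU, 64, 15 and 12 without BU, 8, 1 and 3 without OUB and 31, 4 and 2 without OUS. Without the form term, of the uncalled genes whose difference is given, Greb1, Tnfrsf11b, Csf1, Cxcl12, Fbn2, Fgfr2 and Ppbp changed sign. No paired analysis was possible because the labels give no replicate numbers by which OVX and sham samples could be matched (the array pairs above join mSSC and mBCSP arrays within a group). The floor limits what can be measured in dim genes such as Tnfsf11. The causes of these shifts were not tested.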

Other observations

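Cholesterol synthesis genes differed in both directions. Lss, lanosterol synthase, stood at 11.89 and 12.11 in OVX and at 9.72, 9.32 and 9.29 on SUS, SU and BU, above all sham samples (2.40, adjusted p = 0.102, limma). On its probe set of widest range the Lss difference was only 0.26. Insig1 and Cyp51, also of sterol control and synthesis, were 0.85 and 0.80 higher with adjusted p of 0.325 and 0.441, while Dhcr7, which makes cholesterol in the last step of one branch, lay below all sham arrays (-1.05, adjusted p = 0.780). Of 16 genes 6 (37.5%) lay above and 3 (18.8%) below all sham arrays, against 17.7% and 21.1% of all genes tested.

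Chemokine genes also went both ways. Of 22 tested, 6 (27.3%) lay above and 3 (13.6%) below all sham arrays, against 17.7% and 21.1% of all genes. Ackr3, a scavenging receptor for Cxcl12, stood at 11.86 and 11.73 in OVX and at 10.26, 7.55 and 9.07 in sham (1.44, adjusted p = 0.450), and Cxcl1, a chemokine for neutrophils, at 12.58 and 11.61 in OVX and at 10.70, 8.02 and 9.78 in sham (1.15, adjusted p = 0.650). Ccl3 and Ccl4, made by myeloid cells, lay below all sham arrays at -1.16 and -1.02 (adjusted p of 0.822 and 0.579). Klf4, an immediate early transcription factor, stood at 14.33 and 13.49 in OVX and at 12.88, 10.94 and 11.27 in sham (adjusted p = 0.403). Bnip3, a hypoxia-induced mitophagy gene, was 1.34 higher with an adjusted p of 0.197.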
